A study of Homo sapiens with 36 samples.

Results

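The SOX genes encode transcription factors that share an HMG box, and 10 of them (SOX1, SOX2, SOX4, SOX8, SOX9, SOX11, SOX14, SOX17, SOX18 and SOX21) were followed here among 20163 protein-coding genes of the annotation. They were chosen by name, with earlier results of these data known, and 9 other SOX genes are described at the end. For each gene, peaks and regions were taken that overlapped a window from 2.5 kb upstream of the start site to the gene end, extended by 10 kb on each side, in hg19 coordinates. The chromatin immunoprecipitation (ChIP-seq) libraries came from DU145, an established human prostate cancer cell line, transduced with lentivirus expressing a control short hairpin RNA (shCTR) or a hairpin against the long isoform of PHF19 (shPHF19L#4), the cells not being described as a clone. The deposited files held 14 peak lists, with 2 replicates each of PHF19, EZH2 and SUZ12 in shCTR cells and of H3K27me3 and MTF2 in shCTR and shPHF19L#4 cells. A further 5 tables, made with the DiffBind program, gave the mean log2 read concentration of each group in regions that passed the thresholds of the authors, either for PHF19 against input in shCTR cells, or for EZH2, SUZ12, H3K27me3 and MTF2 in shPHF19L#4 against shCTR cells. Read totals were not in these files, so the depth behind each list is unknown, and RNA-seq and PHF19 ChIP-seq of shPHF19L#4 cells, which belong to the series, were not analysed here, so the knockdown was not checked.

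The HMG box bends DNA in its minor groove, and SOX proteins direct many choices of cell fate, usually together with partner factors. They are divided into groups by sequence: B1 factors such as SOX2 keep neural progenitors undifferentiated, B2 factors counteract them, C factors act in differentiating neurons, E factors in cartilage, testis, neural crest and glia, and F factors in endoderm and endothelium. In cells that do not use them, genes of this kind are classical targets of Polycomb repressive complex 2 (PRC2), in which EZH2 places the H3K27me3 mark on histone H3, SUZ12 holds the core together, and PHF19 and MTF2 are alternative Polycomb-like subunits that bind CpG-rich DNA and methylated histone H3.

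The 10 genes differed in the targets called at them in DU145 cells. SOX2, SOX14, SOX17, SOX18 and SOX21 had regions listed for PHF19, EZH2 and MTF2. SOX8 had EZH2 and MTF2 regions without a PHF19 region, and SOX9 had a PHF19 region without either. SOX4 had only MTF2 peaks, which were in the lists of replicate 2. SOX1 and SOX11 had no peak in any of the 14 lists and no region in any of the 5 tables. Over all genes a region was listed at 12.4% for EZH2, 11.5% for MTF2 and 5.94% for PHF19, so lacking one was common. Shares of all genes with the same combinations are not given here.

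**Figure D1:**
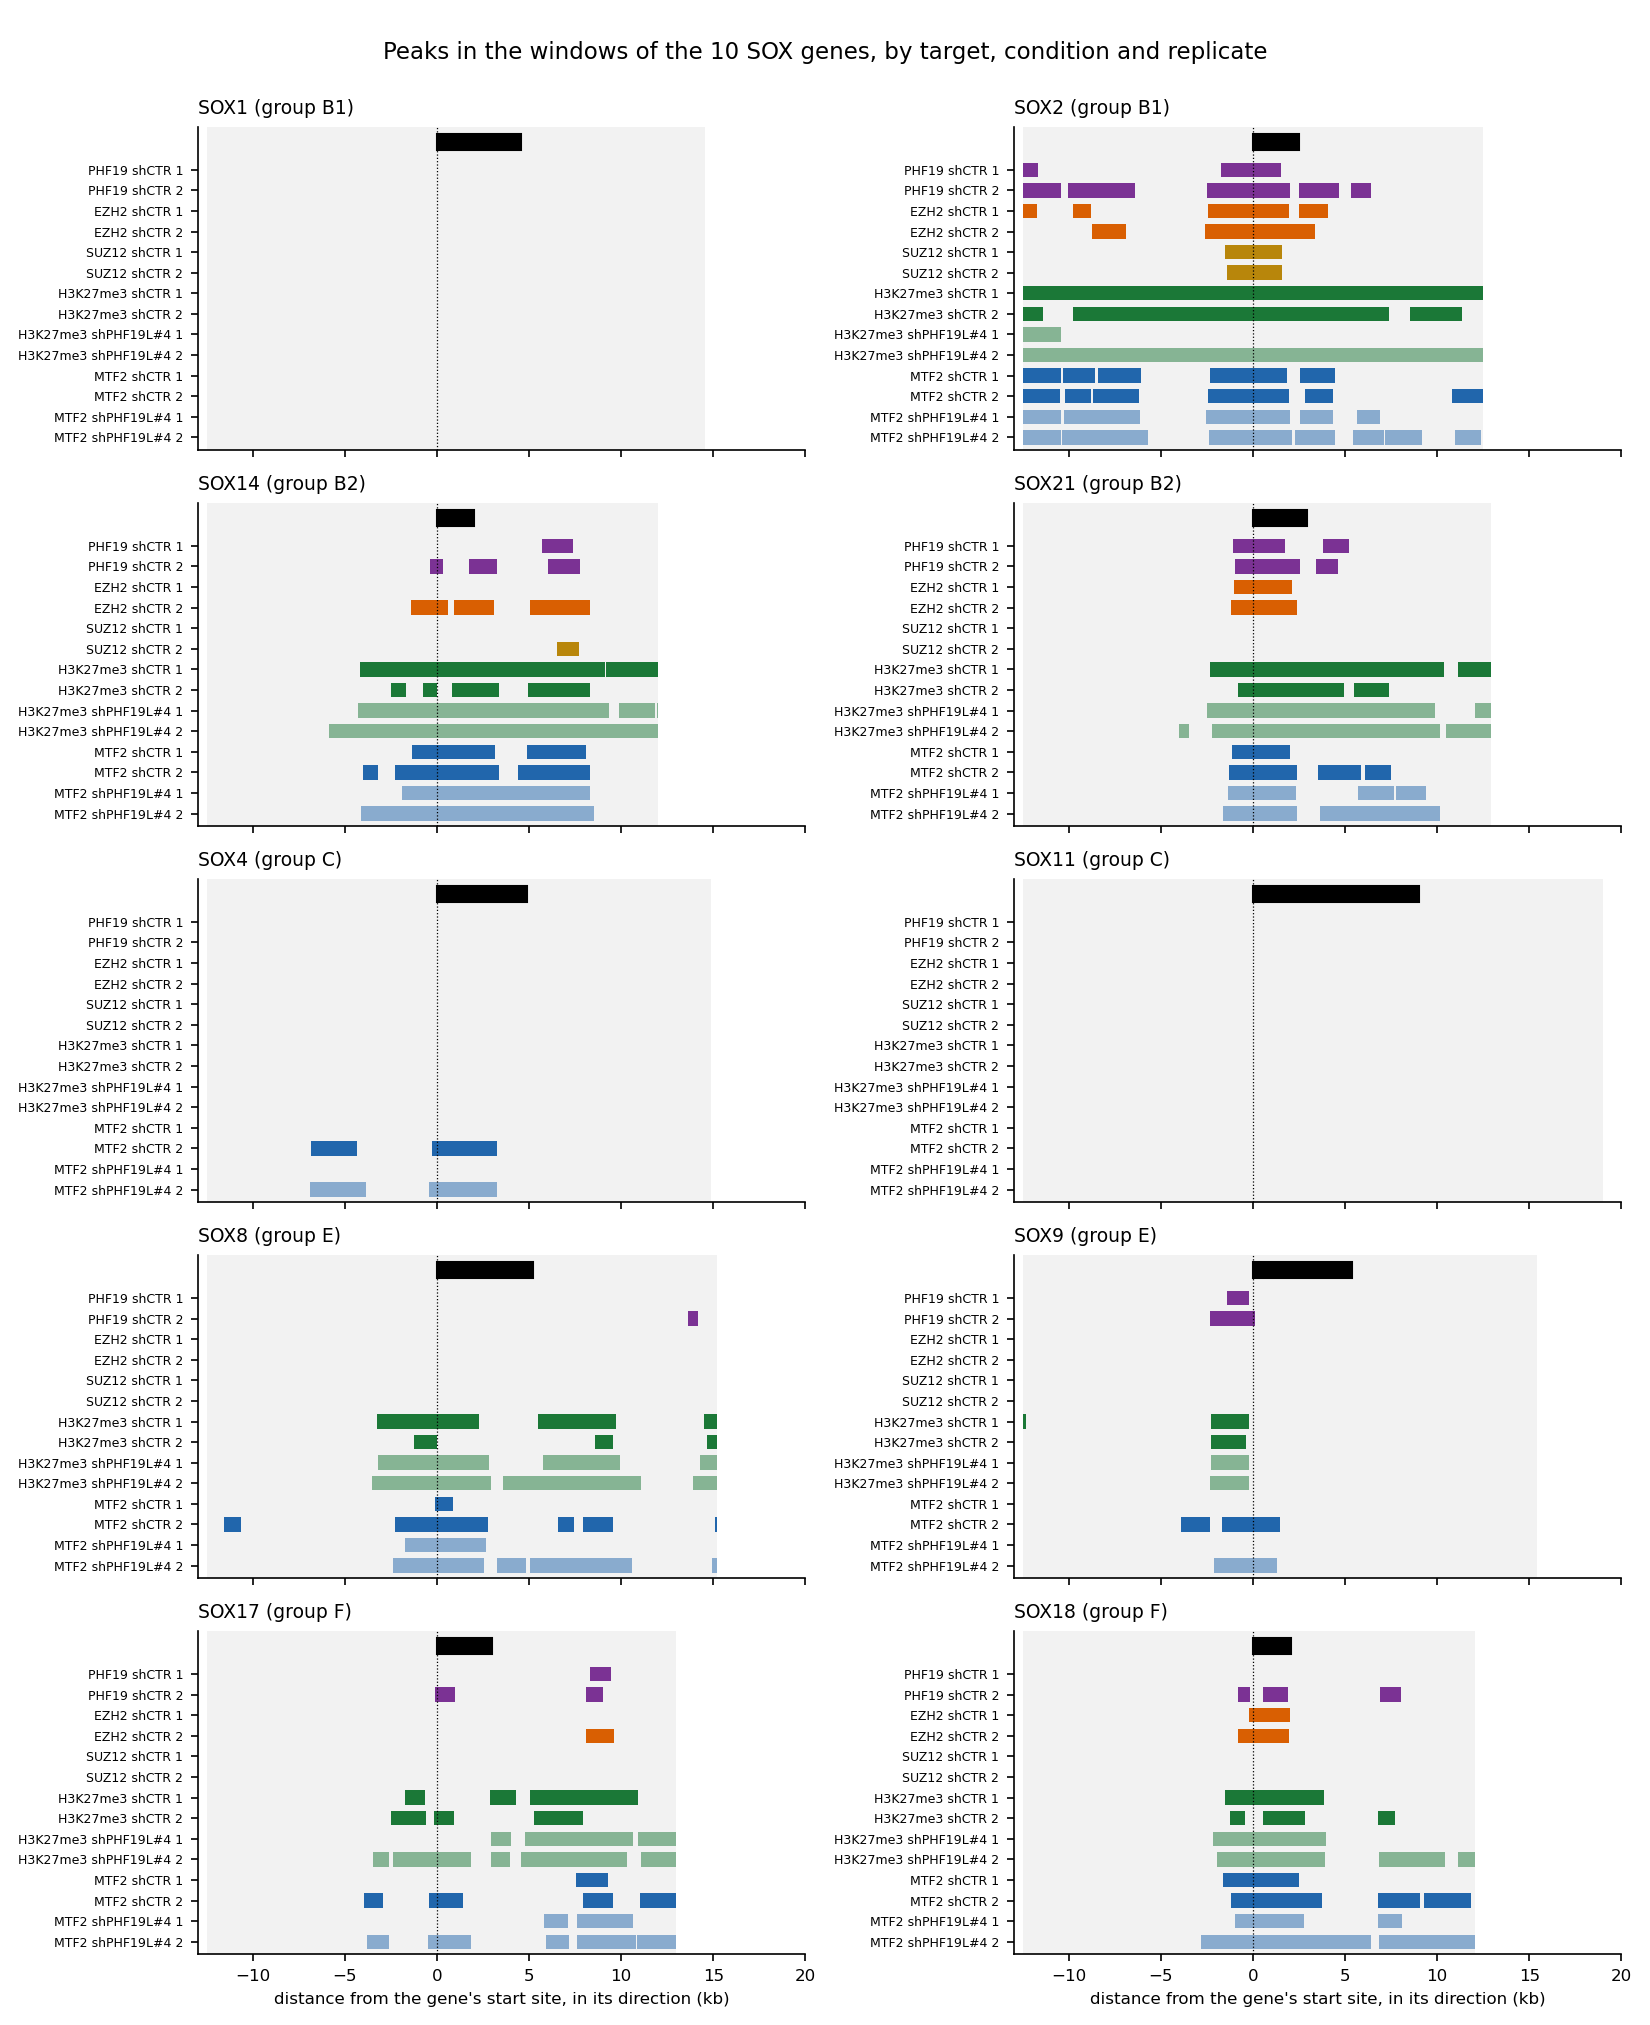
Peaks (coloured bars) in the window of each of the 10 SOX genes (grey area), plotted by distance from the start site in kb, with one line per target, condition and replicate, the gene as a black bar and the shPHF19L#4 lists in paler colours. The windows of SOX1 and SOX11 are empty, SOX4 has bars only in the MTF2 lists of replicate 2, and SOX2 has bars in all 14 lists.

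The DNA in front of the start site is shown for SOX2, because it had peaks in all 14 lists. The line gives the 300 bases that end 1 base before the annotated start, 5′ to 3′ on the plus strand, at chr3:181429413-181429712 of GRCh37 (the same build as hg19), with every CG dinucleotide in capitals.
SOX2: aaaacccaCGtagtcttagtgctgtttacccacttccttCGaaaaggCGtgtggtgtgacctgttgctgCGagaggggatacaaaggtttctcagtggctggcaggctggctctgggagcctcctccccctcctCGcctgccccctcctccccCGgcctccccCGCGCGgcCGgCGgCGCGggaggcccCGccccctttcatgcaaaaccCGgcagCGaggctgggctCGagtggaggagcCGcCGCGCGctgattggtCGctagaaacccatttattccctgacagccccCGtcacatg

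The letters CG, which read the same on both strands, occurred 23 times upstream of SOX2. The median over all 20163 upstream stretches of this length was 16, and 97.1% held at least 1 CG. The letters GCG on either strand (GCG or CGC, which may overlap each other and which contain CG) occurred 20 times, against a median of 10, and 89.5% of all upstream stretches held at least 1. The SOX2 stretch held more CG than 66.6% of all genes.

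All 10 members were compared over a wider stretch of 500 bp on each side of the start site. SOX1 had 118 CpG dinucleotides there and SOX11 had 108, more than 93.8% and 89.9% of the 20144 genes with sequence. SOX18 also had 118, and SOX8 had 136. SOX2 had 64 and SOX14 had 59, close to the median of 58 for all genes, and SOX4 had 33, fewer than any other member. The counts of SOX1 and SOX11, which had no peak in any list, thus lay within the range of the other members. The listed PHF19 regions of SOX14 and SOX17 lay outside this stretch, and a link between CpG content and peaks was not tested.

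**Figure D2:**
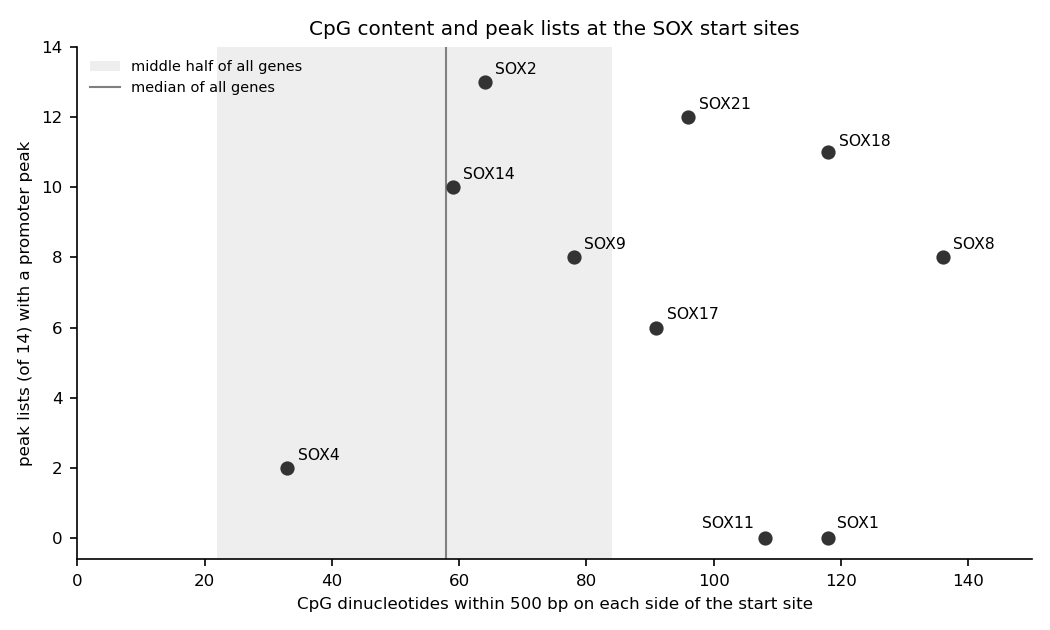
CpG dinucleotides within 500 bp on each side of the start site (x axis, count) and number of the 14 peak lists with a peak within 2.5 kb of the start (y axis) for the 10 SOX genes, 1 point each; the line is the median of all genes and the grey band runs from the lower to the upper quartile, 22 to 84. SOX1 and SOX11 lie to the right of the band at 0 lists, and SOX2 lies within it at 13 lists.

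A listed PHF19 region lay in the window of 6 of the 10 members (SOX2, SOX9, SOX14, SOX17, SOX18 and SOX21), against 5.94% of all protein-coding genes. Within 2.5 kb of the start site the count was 4 of 10, against 3.51% of all genes. The windows of the members were short, with a median of 26.3 kb against 49.7 kb over all genes, so a member offered less sequence in which a region could lie. Every one of the 11 listed regions at these genes had a higher concentration in the ChIP than in the input, as had all 1245 regions of that table, in which a difference was needed to be listed.

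SOX2, the B1 factor that maintains pluripotent and neural progenitor cells, had the strongest PHF19 signal of the members. Its main region, at chr3:181427198-181431694, ran from 2.5 kb upstream to 2.0 kb downstream of the start and covered 1982 bp of the gene, which is a single exon inside the long noncoding gene SOX2-OT. The mean log2 concentration of the authors was 8.92 in the PHF19 ChIP and 5.57 in the input, a difference of 3.35 that exceeded those of 98.2% of the listed regions. Per kb of region, the PHF19 concentration at SOX2 was 6.75 on the log2 scale, followed by 6.08 at SOX9, 5.67 at SOX21, 5.32 at SOX18, 5.02 at SOX14 and 4.92 at SOX17, an order without a measure of spread since the table holds group means only.

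In the lists of each replicate, the SOX2 start site carried a PHF19 peak with a value of 310 in replicate 1, read here and below as a tag count from the name of its track, and with a MACS score of 3100 in replicate 2. The score grows as the p-value of the peak caller shrinks, and 3100 is a value shared by 47 peaks of that list, so peaks at this value cannot be ranked. Another 3 listed PHF19 regions flanked the gene, from -14 to -10.4, from -10.1 to -6.4 and from 2.5 to 4.7 kb around the start, where negative distances are upstream, with differences from input of 1.68, 1.46 and 1.94.

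**Figure D3:**
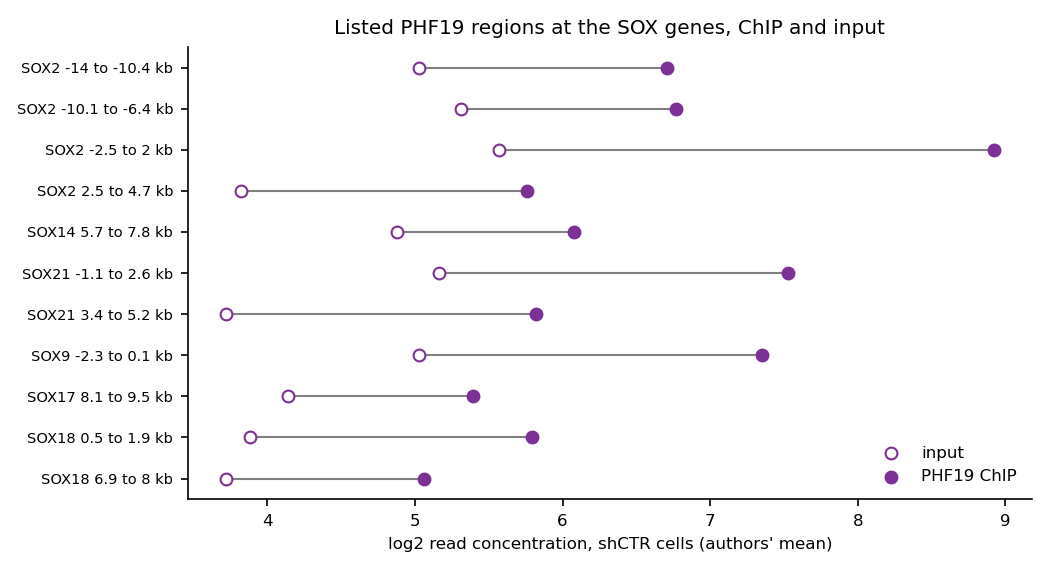
Mean log2 read concentration (x axis) of the PHF19 ChIP (filled) and the input (open) in shCTR cells for the 11 listed PHF19 regions at SOX genes, each named by its gene and distance from the start site. The region over the SOX2 start has the widest gap, 8.92 against 5.57.

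The B2 genes, whose products repress targets that B1 factors activate, differed in where PHF19 sat. At SOX21 the main region, at chr13:95362239-95365869, covered the start and had concentrations of 7.53 in the ChIP and 5.16 in the input. The replicates gave 113 tags and a score of 1184 there. At SOX14, by contrast, the listed region lay 5.7 to 7.8 kb downstream of the start, beyond the gene and reaching into the start of the noncoding gene LINC01210, with 6.08 against 4.88. The start of SOX14 itself had only a weak peak in replicate 2, with a score of 51.5 where 50 was the lowest in the list, and none in replicate 1.

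SOX9, an E factor needed for cartilage and testis development and expressed in prostate epithelium, had the second-highest PHF19 concentration per kb. Its region, at chr17:70114827-70117239, ended 0.1 kb past the start and overlapped the antisense gene SOX9-AS1, with 7.35 in the ChIP and 5.03 in the input. It had 70 tags in replicate 1, higher than 63.2% of that list, and a score of 1453 in replicate 2, higher than 99.1% of that list. The PHF19 list of replicate 1 held 1072 peaks and that of replicate 2 held 14218. Ranks in these lists, and peaks called in replicate 2 alone, are therefore not on the same footing. SOX8, the other E factor of the list, had no PHF19 peak near its start, and its only one lay 13.6 to 14.2 kb downstream with a score of 65.5 in replicate 2.

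The F genes, which act in endoderm (SOX17) and in blood and lymphatic vessels (SOX17 and SOX18), had PHF19 concentrations per kb below those of SOX2, SOX9 and SOX21. At SOX18 a region within the gene, 0.5 to 1.9 kb from the start, had 5.79 against 3.88, and another 6.9 to 8.0 kb downstream had 5.06 against 3.72. Both were called in replicate 2 alone, with scores of 279 and 175. At SOX17 the listed region was 8.1 to 9.5 kb downstream of the start, with 5.39 against 4.14, and was called in each replicate, with 33 tags and a score of 58. The start of SOX17 had a peak in replicate 2 alone, with a score of 51.5.

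The PRC2 subunits themselves were called in shCTR cells at a few members only. An EZH2 peak was in both replicates at 3 of 10 members (SOX2, SOX18 and SOX21), against 3.02% of all genes, and a SUZ12 peak at 1 of 10 (SOX2), against 0.293%. The EZH2 count rested on replicate 1, since the list of replicate 2 alone had 5 members, adding SOX14 and SOX17. SUZ12 had 1523 peaks in replicate 1 and 232 in replicate 2, and its count was 2 from replicate 2 alone and 1 from replicate 1 alone. Shares of all genes were taken for peaks in both replicates only. The EZH2 and SUZ12 counts from single lists thus cannot be set against all genes.

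At SOX2 the EZH2 peak over the start had a score of 494 in replicate 1 and 704 in replicate 2, and the SUZ12 peaks scored 93.6 and 158. The EZH2 peak at SOX21 scored 158 and 335, and that at SOX18 scored 66.8 and 223. At SOX14 EZH2 was called in replicate 2 only, most strongly 5.0 to 8.3 kb downstream of the start with a score of 541, the same place as its PHF19 region and its SUZ12 peak, which scored 75 in replicate 2. SOX9 had no EZH2 or SUZ12 peak in either replicate although PHF19 was called there in both.

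H3K27me3 was more widespread. In shCTR cells 7 of 10 members had a peak in both replicates (SOX2, SOX8, SOX9, SOX14, SOX17, SOX18 and SOX21), against 18.2% of all genes, and the same 7 had one in both shPHF19L#4 replicates, against 25.5%. Near the start site the count was 7 of 10 in shCTR cells, against 8.83% of all genes, and 5 of 10 in shPHF19L#4 cells, against 12.9%. The members missing from the second count were SOX2 and SOX17, which had no promoter peak in replicate 1 of the knockdown.

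SOX2 lay in a broad domain that the replicates treated in opposite ways. In shCTR cells a peak of 40039 bp in replicate 1 reached from -20.2 to 19.8 kb around the start and filled the window of 25.01 kb, and in replicate 2 peaks covered 21.11 kb of it. In shPHF19L#4 cells the covered length was 2.07 kb in replicate 1, all of it more than 10 kb upstream of the start, and 25.01 kb in replicate 2. Replicate 1 thus lost nearly all of the called domain over SOX2 while replicate 2 filled the window.

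At the other members with the mark, the covered length hardly differed between conditions in replicate 1, and shCTR replicate 2 had the shortest length. SOX14 had 16.14 kb covered in shCTR replicate 1, 7.55 kb in shCTR replicate 2, 15.71 kb in shPHF19L#4 replicate 1 and 17.9 kb in shPHF19L#4 replicate 2. SOX21 had 14.52, 7.63, 13.28 and 15.44 kb in the same order. SOX8 had 10.46, 2.72, 11.15 and 15.21 kb. At each of these genes shPHF19L#4 replicate 2 was the highest, and the values of replicate 1 lay between those of replicate 2. At SOX8 and SOX21, as at SOX14 and SOX18, the scores of the peaks nearest the start moved in opposite directions in the replicates. At SOX8 they were 462 in shCTR and 140 in shPHF19L#4 cells of replicate 1, and 94.6 and 1813 in replicate 2. At SOX21 they were 461 and 140 in replicate 1, and 418 and 3100 in replicate 2. At SOX14 they were 64.5 and 61.7 in replicate 1, and 52.9 and 3001 in replicate 2. At SOX18 they were 331 and 239 in replicate 1, and 57 and 3100 in replicate 2. In the whole lists of replicate 2, the value 3100 was held by 2 peaks in shCTR and 719 in shPHF19L#4 cells.

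The F genes followed the same course. SOX17 had 8.36, 5.61, 9.03 and 13.88 kb covered and SOX18 had 5.42, 4.02, 6.1 and 10.44 kb, with shPHF19L#4 replicate 2 the highest at both. SOX9 stood apart with a narrow peak that hardly varied: 2.21, 1.93, 2.06 and 2.11 kb, placed just upstream of the start in all 4 lists and overlapping its PHF19 region, with the edge of a distant upstream peak added in shCTR replicate 1. SOX1, SOX4 and SOX11 had 0 kb in every list.

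Over the 10 members the length under H3K27me3 peaks went from 82.1 to 59.4 kb in replicate 1, a ratio of 0.723, and from 50.6 to 100 kb in replicate 2, a ratio of 1.98. Over the mean of both replicates the ratio was 1.2. Leaving out SOX2, a choice made after its values were seen, gave ratios of 1 and 2.54 for these replicates and 1.53 over both. The whole lists changed by ratios of 0.895 and 5.24, with median scores of 110 and 109 in replicate 1 and of 89.7 and 136 in replicate 2. The fall in replicate 1 lay at SOX2. The ratios at the members and over whole lists are not alike in kind, since a window that is nearly covered, as at SOX2, can gain little. The replicates did not share a direction over all members.

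**Figure D4:**
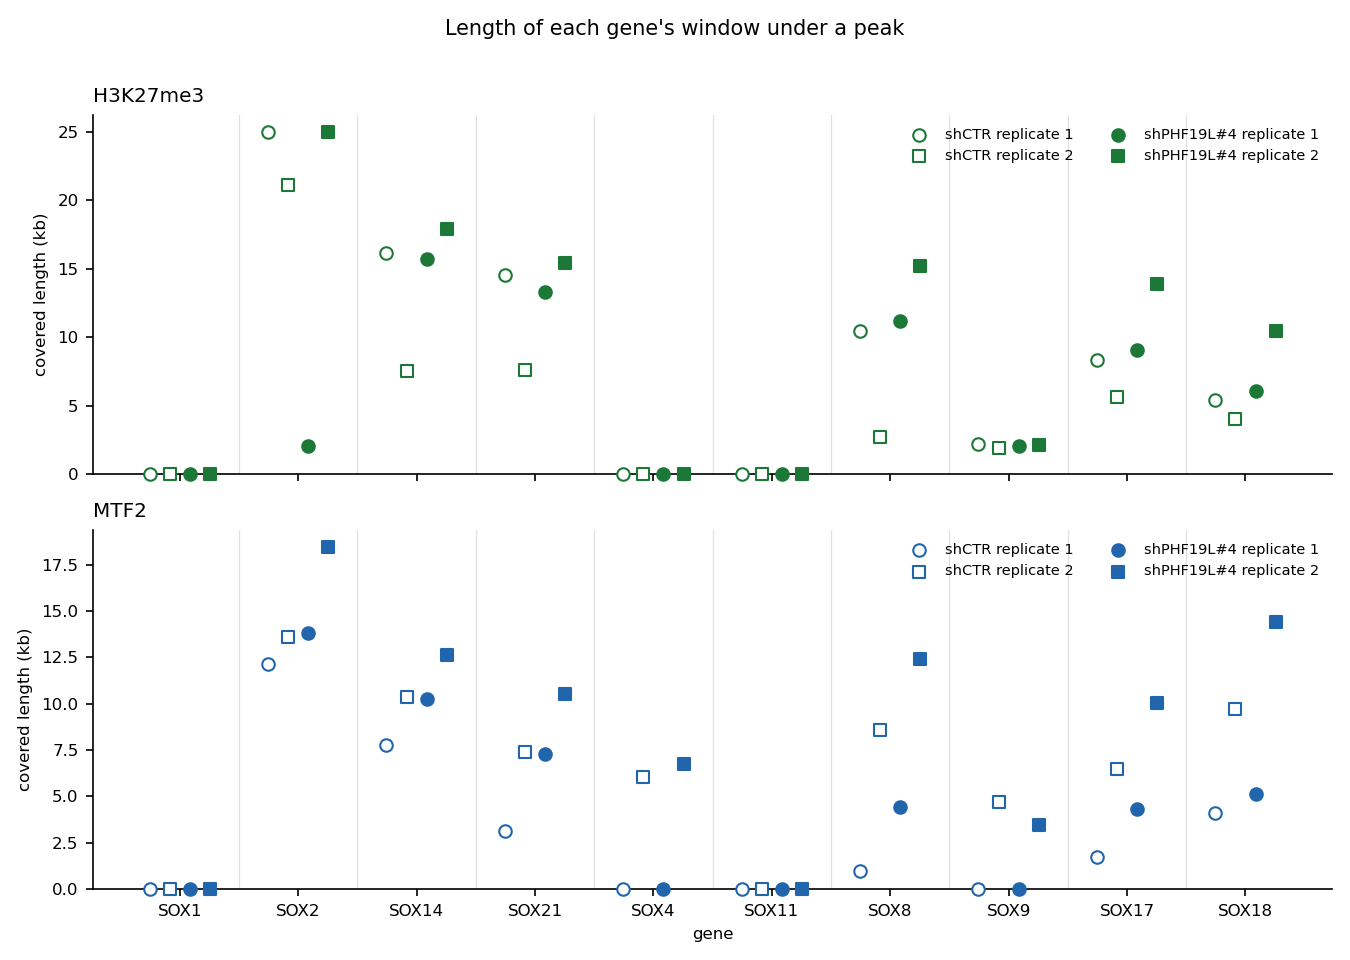
Length of the window of each of the 10 SOX genes covered by H3K27me3 peaks (top) and MTF2 peaks (bottom), in kb, with 1 point per list; open symbols are shCTR, filled symbols shPHF19L#4, circles replicate 1 and squares replicate 2. For H3K27me3 at SOX2 shPHF19L#4 replicate 1 is at 2.07 kb and the other 3 lists are above 21 kb.

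MTF2, the other Polycomb-like protein, was called in both shCTR replicates at 6 of 10 members (SOX2, SOX8, SOX14, SOX17, SOX18 and SOX21), against 7.31% of all genes. The same 6 were called in both shPHF19L#4 replicates, against 13.3%. These were also the members with a listed EZH2 region, whereas SOX9, with PHF19 and H3K27me3 at its start, was not among them.

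The length under MTF2 peaks over the members was 29.9 kb in shCTR replicate 1 and 45.2 kb in shPHF19L#4 replicate 1, a ratio of 1.51, and 66.9 and 88.8 kb in replicate 2, a ratio of 1.33. Both replicates moved in the same direction here, and so did the whole lists, with ratios of 1.83 and 1.27. Over the mean of both replicates the ratio at the members was 1.38. The members lay below the whole list in replicate 1 and above it in replicate 2. As for H3K27me3, ratios at the members and over whole lists are not alike in kind. At SOX21 the covered length was 3.14 kb in shCTR replicate 1, 7.39 kb in shCTR replicate 2, 7.29 kb in shPHF19L#4 replicate 1 and 10.55 kb in shPHF19L#4 replicate 2.

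SOX8 had the shortest MTF2 length of the 6 in shCTR replicate 1, but not in shCTR replicate 2, where SOX17 had 6.5 kb. Its MTF2 peaks covered 0.96 kb in shCTR replicate 1, 8.59 kb in shCTR replicate 2, 4.42 kb in shPHF19L#4 replicate 1 and 12.41 kb in shPHF19L#4 replicate 2, so the replicates differed more than the conditions. In replicate 2, whose list carries scores, the peak over the SOX8 start scored 957 in shCTR and 3100 in shPHF19L#4 cells, and that over the SOX17 start scored 382 and 1578. The values of 3100 are again shared, by 275 peaks of the shCTR list and 1065 of the shPHF19L#4 list. By rank the peaks moved little. That at SOX8 was above 96.4% of the shCTR list and 96.8% of the shPHF19L#4 list. That at SOX17 was above 92.5% and 94.4%.

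SOX9 and SOX4 had MTF2 peaks in replicate 2 alone. At SOX9 the score over the start was 1015 in shCTR and 1664 in shPHF19L#4 cells, while the covered length went from 4.68 to 3.45 kb. At SOX4, a C factor often high in epithelial cancers, the score over the start was 328 in shCTR and 578 in shPHF19L#4 cells, and a second peak more than 3 kb upstream scored 296 and 236. The median score of the MTF2 lists of replicate 2 was 72 in shCTR and 86.4 in shPHF19L#4 cells, so scores of both lists are not on the same footing. By rank the peak over the SOX9 start was above 96.6% of the shCTR list and 94.6% of the shPHF19L#4 list. That over the SOX4 start was above 91.5% and 89.1%. No list of replicate 1 had a peak at SOX4, and the MTF2 lists of replicate 1, with 2516 and 4216 peaks, were far shorter than those of replicate 2, with 32254 and 34623.

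The comparison of shPHF19L#4 with shCTR cells rests on the regions the authors listed, so members without a region have no value. A listed difference had to pass their threshold, which the paper gives as a P value and not as a size of change. An EZH2 region was listed at 6 of 10 members, against 12.4% of all genes, and an MTF2 region at the same 6, against 11.5%. Near the start site the counts were 6 of 10 for EZH2, against 7.44% of all genes, and 5 of 10 for MTF2, against 7.05%, SOX17 being the difference. A SUZ12 region was listed at 3 of 10 (SOX14, SOX18 and SOX21), against 3.17%, and an H3K27me3 region at 1 of 10 (SOX18), against 5.15%.

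All listed regions at the members had a higher concentration in shPHF19L#4 than in shCTR cells: 9 for EZH2, 10 for MTF2, 3 for SUZ12 and 2 for H3K27me3. The same was true of 2407 of 2408 EZH2 regions, 2539 of 2546 MTF2 regions, 508 of 508 SUZ12 regions and 1048 of 1049 H3K27me3 regions, so the direction did not set the members apart. Taking for each gene its region of highest concentration, the median log2 change was 1.18 for EZH2 against 1.16 over all listed regions, 0.94 for MTF2 against 0.87, and 0.94 for SUZ12 against 0.96.

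**Figure D5:**
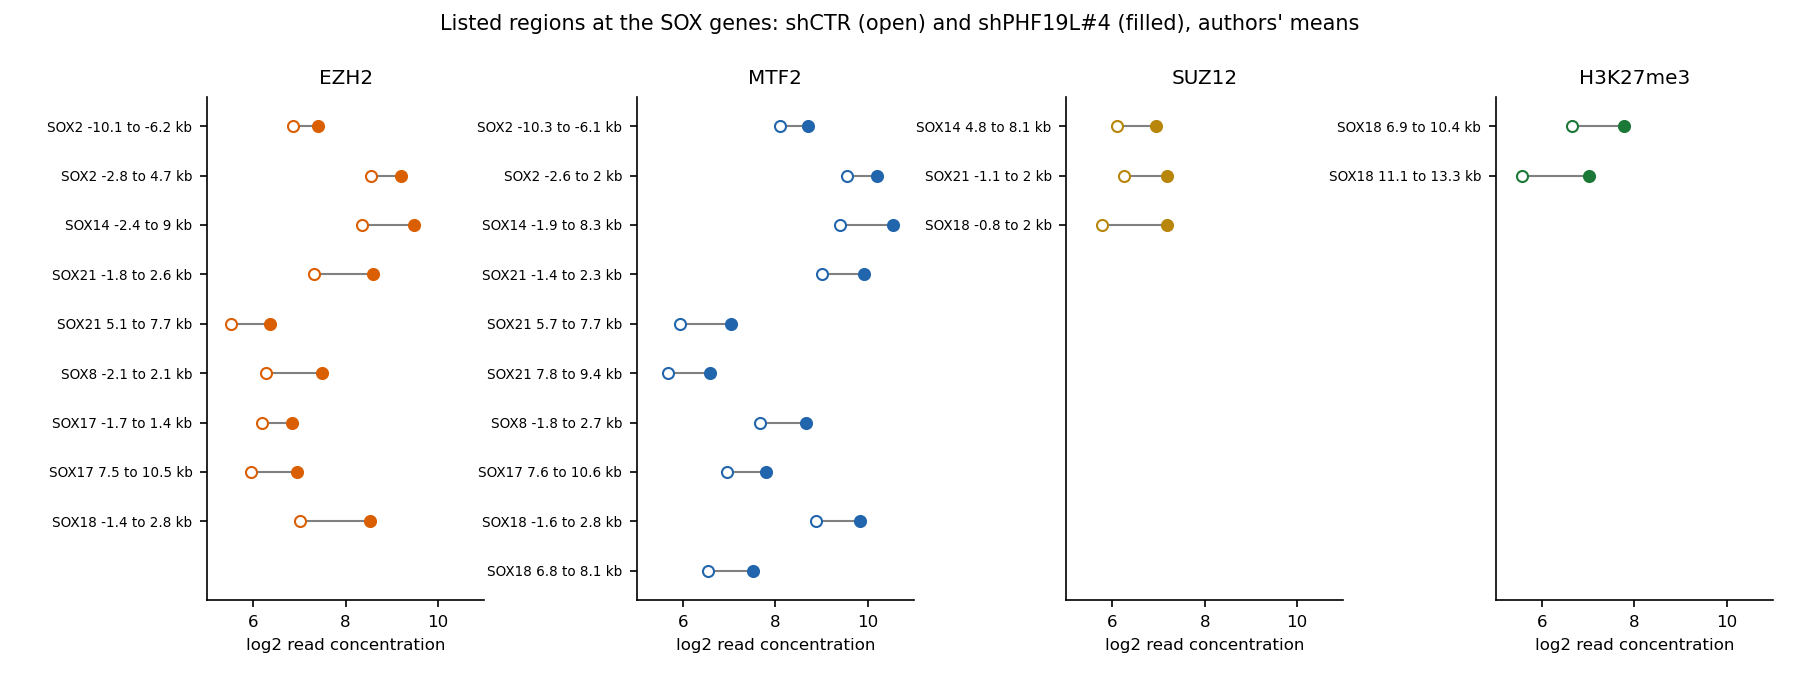
Mean log2 read concentration (x axis) in shCTR (open) and shPHF19L#4 cells (filled) for every listed region at the SOX genes, by target, each region named by its gene and distance from the start site in kb. Filled points lie to the right of open points in all 4 panels, and the shortest EZH2 and MTF2 gaps over a start site include those of SOX2.

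SOX2 had the highest shCTR level per kb of the members for both EZH2 and MTF2, and its changes were among the smallest. EZH2 over its start went from 8.54 to 9.19, a change of 0.65 that was larger than only 4.78% of listed EZH2 regions, and SOX17, with a much lower level per kb, had a change of 0.66. MTF2 over the start went from 9.55 to 10.21, a change of 0.66 that was larger than 16.3% of listed MTF2 regions, and the upstream regions changed by 0.54 for EZH2 and 0.61 for MTF2.

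The B2 genes had larger EZH2 and MTF2 changes over their starts than SOX2. At SOX21 EZH2 over the start, at chr13:95362209-95366620, went from 7.32 to 8.60, a change of 1.28, and MTF2 went from 9.01 to 9.93, a change of 0.92. SUZ12 went from 6.24 to 7.18 there. At SOX14 the EZH2 region of 11385 bp, at chr3:137480760-137492144, took in the start, the gene and the downstream PHF19 site, and went from 8.35 to 9.48, a change of 1.13. Its MTF2 region went from 9.41 to 10.55, a change of 1.14 that was the largest among the main MTF2 regions of the members and larger than 87.2% of those listed. The SUZ12 region downstream of SOX14 went from 6.11 to 6.95, a change of 0.84 that was larger than 27.2% of listed SUZ12 regions.

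SOX8 had no EZH2 peak in either shCTR replicate. Its start, at chr16:1029641-1033903, was listed with an EZH2 concentration of 6.27 in shCTR and 7.49 in shPHF19L#4 cells, a change of 1.22. By the paper, the compared regions joined peaks called in either condition, so a region can be listed without a shCTR peak. No EZH2 peak list of shPHF19L#4 cells was among those read here. MTF2 there went from 7.67 to 8.66, a change of 0.99. The region lies over the first part of SOX8 and also over the noncoding gene CEROX1 and the neighbouring coding gene LMF1, from which it cannot be told apart. SOX9 had neither an EZH2 nor an MTF2 region listed.

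SOX18, which controls lymphatic vessel formation, was the member with a region in all 5 tables and the largest EZH2 and SUZ12 changes. EZH2 over its start, at chr20:62678146-62682342, went from 7.01 to 8.52, a change of 1.51 that was larger than 85.5% of listed regions. SUZ12 went from 5.77 to 7.18, a change of 1.41, larger than 94.3% of listed regions, and MTF2 from 8.88 to 9.84, a change of 0.96. The region over the start also overlaps the neighbouring coding gene TCEA2.

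The H3K27me3 regions listed at SOX18 were away from its start, at chr20:62670543-62674127 and chr20:62667647-62669883, which is 6.9 to 10.4 and 11.1 to 13.3 kb downstream. They went from 6.64 to 7.78 and from 5.57 to 7.02, changes of 1.14 and 1.45, and overlap the neighbouring coding gene C20orf204. Peaks with the same bounds were in the list of shPHF19L#4 replicate 2, shCTR replicate 2 had a shorter one from 6.8 to 7.7 kb, and neither list of replicate 1 had any there. Without the added 10 kb no member had a listed H3K27me3 region.

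SOX17 had EZH2 regions at its start, with a change of 0.66 from 6.19 to 6.85, and 7.5 to 10.5 kb downstream, with a change of 1.00 from 5.95 to 6.95. Its MTF2 region lay at the downstream place only, where PHF19 was also listed, and went from 6.96 to 7.81. SOX17 thus had a smaller EZH2 change at its start than away from it, the reverse of SOX21, where a region 5.1 to 7.7 kb downstream changed by 0.85.

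The genes whose promoters were most like that of SOX2, the member with promoter peaks in the most lists, were NTNG2, FSTL4 and NPTX1. Likeness was the Euclidean distance over the 14 lists between the shares of sequence under peaks within 2.5 kb of the start, and it was 0.271, 0.432 and 0.747 for these genes against a median of 3.11 over all genes. Among the members SOX21 was nearest to SOX2, at 1.47, followed by SOX18 at 1.72 and SOX14 at 1.88. SOX1, of the same group as SOX2, and SOX11 were both at 3.15. Neither had a peak in any list, and every gene without promoter peaks lies at that distance by construction.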

How the data were processed

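ChIP-seq peaks were called by the authors on each replicate with MACS after mapping with Bowtie to hg19, with fly chromatin (dm3) added in some libraries, and versions were not stated. The deposited PHF19 list of replicate 1 holds whole numbers, taken as a tag count per peak from the track name. The deposited MTF2 lists of replicate 1 hold positions only, and the other deposited lists hold a MACS score of 50 or more. The DiffBind tables of the authors hold mean log2 read concentrations, and their fold, p-value and FDR columns were not used. In 4 tables the second header line named the columns. GENCODE release 44, lifted to GRCh37, gave gene positions. Overlap meant at least 1 bp. Scripts used Python 3.11.15, numpy 2.4.6, pandas 2.3.3, pysam 0.24.0 and matplotlib 3.10.9, and the overlap code was tested on simulated data. No test between conditions was run, since the tables hold group means and 2 against 2 replicates cannot go below p = 0.333 in an exact permutation test. The members, gene lists, named-gene rule and alternatives were chosen with earlier results of these data known. The named genes were all members, the other SOX genes, neighbours in the windows and the 3 genes most like the member with promoter peaks in the most lists.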

Additional observations from a re-analysis of the deposited data

How the results depend on the processing

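No paired analysis was possible because the results come from no test. Ratios of covered length within each replicate number are given instead. Of 77 alternatives over 17 results, 66 stayed within 1.5 times the main count or within the spread. The score minimum could not act on the MTF2 lists of replicate 1, which carry no score. The EZH2 count of 3 became 5 with a peak in either replicate and ranged from 3 to 5 when a replicate was left out. The SUZ12 count of 1 became 2 with a peak in either replicate and 0 with a score of at least 100, and ranged from 1 to 2 when a replicate was left out. The count for listed H3K27me3 regions of 1 became 0 without the 10 kb and 0 at promoters only, where no median change could be given. Averaging the regions of SOX18 gave an H3K27me3 change of 1.29 in place of 1.14. The H3K27me3 length ratio of 1.2 ranged from 0.723 without replicate 2 to 1.98 without replicate 1, on either side of no change, and the cause was not tested. The MTF2 length ratio of 1.38 became 1.2 without the 10 kb. Read depth is not in the files, so a missing peak cannot be told from a shallow library, and scores at 3100 hide differences among strong peaks.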

Other observations

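The other SOX genes of the annotation were read by the same windows. Among 9 of them (SOX3, SOX5, SOX6, SOX7, SOX10, SOX12, SOX13, SOX15 and SOX30), an EZH2 region was listed at 4 (12.4% of all genes), an MTF2 region at 4 (11.5%), a PHF19 region at 3 (5.94%), a SUZ12 region at 3 (3.17%) and an H3K27me3 region at 0 (5.15%). SOX7, an F factor like SOX17 and SOX18, had promoter peaks in 13 of the 14 lists, and EZH2 over its start went from 8.30 to 9.53 and MTF2 from 9.88 to 10.79. SOX5, a D factor of cartilage and neurons, had changes at its start of 1.00 for EZH2, 1.09 for MTF2 and 0.49 for SUZ12, larger than 29.1%, 82.6% and 0.394% of the listed regions of each. In SOX6, its close relative, the listed regions lay inside the gene 125.0 to 136.4 kb from the annotated start, and none was at that start. Those at 125.0 to 128.3 kb also overlap the start of the coding gene C11orf58, and the regions over the SOX7 start overlap the coding gene PINX1. SOX3, the remaining B1 factor, had EZH2 and MTF2 regions just upstream of its start, with changes of 1.09 and 1.16.

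SOX15 had no peak in any list, SOX10 had 1 peak in 1 list, and SOX12, SOX13 and SOX30 had peaks in 3 lists each and no listed region. SOX12 joins SOX4 and SOX11 in group C, and all 3 of these genes lacked a listed region for any target. Lacking one was common, since EZH2, the target listed at most genes, had a region at 12.4% of all genes. SOX5 and SOX6 are far longer than the members, with windows of 1055541 and 795644 bp, so their counts are not on the same footing.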
